A study of Mus musculus with 6 samples.

Results

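Mouse embryonic stem cells with a short hairpin RNA (shRNA) directed at Chd4 were compared with cells carrying a control shRNA after 4 days of neural differentiation. The comparison uses 2 of the 6 arrays of the series, the array labelled sh Chd4 Day 4 and the array labelled sh Ctrl. Day 4, and all probe sets with exactly 1 gene symbol, 23521 of 34351, which stand for 22180 genes. Of these, 13733 genes were compared, because the brighter of the 2 arrays reached its median over all probe sets there. The other 4 arrays hold the control and Chd4 lines at day 0 and a line with an shRNA against Mbd3 at both days, and their values are given beside the comparison. All lines were made by infecting stem cells with a lentivirus that encodes the shRNA, so the hairpins were present at day 0 as well as at day 4, and the control carries a virus too. At day 0 the cells grew on gelatin in serum medium with leukemia inhibitory factor (LIF), and at day 4 they were floating re-aggregates in wells of low adhesion, in a medium with knockout serum replacement. Each group is 1 sample. It is not stated in the labels whether a sample was 1 culture, a pool or the descendants of 1 infected cell, nor which stem cell line was used. No difference between the 2 arrays has a replicate check, no test was made, and "higher" and "lower" describe these arrays.

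Chd4 encodes the ATPase that moves nucleosomes in the nucleosome remodeling and deacetylase complex, NuRD. The complex joins this remodeling to histone deacetylases and is known for lowering the activity of enhancers and promoters of stem cell genes when pluripotent cells leave that state. In an aggregate culture without LIF, stem cells normally pass through a primed, epiblast-like state to neural progenitors and then to the first neurons. Chd4 itself stood at 973 and 1021 in control cells at day 0 and day 4, and 289.6 and 727 in Chd4-knockdown cells. The knockdown array thus held 71.3% of the control signal at day 4, against 29.8% at day 0. Of the other 14 measured NuRD subunits and paralogs, the paralog Chd3 was past 2-fold, 2.81-fold lower. Of the subunits, Hdac2, a deacetylase, stood at 855 in control and 500.0 in Chd4-knockdown cells, and Mta3 at 484 in control and 834 in Chd4-knockdown cells. The methyl-CpG-binding subunit Mbd3 differed little, at 183 in control and 204 in Chd4-knockdown cells.

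In all, 697 genes (5.08% of those compared) were higher by 2-fold or more in the Chd4 knockdown and 912 (6.64%) were lower at day 4, which makes 11.7% in either direction. The counts of gene lists below are to be read beside these shares. At least 4-fold, 132 were higher and 197 lower, and at least 8-fold 17 and 37. The median log2 difference of all genes compared was -0.04. Where the dimmer of the 2 intensities lay under 41.4, the highest median of the 6 arrays, the fold is given against 41.4 as "at least", which holds for 193 of the higher and 202 of the lower genes. Over the 6 arrays the medians ranged from 39.6 to 41.4. Values below are intensities on a linear scale, and the median of a gene list is a log2 difference, Chd4 knockdown minus control. Levels of different genes are not set against each other, since probe sets differ in their response. In bulk samples such as these, fewer cells of a type and less RNA per cell cannot be told apart.

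**Figure D1:**
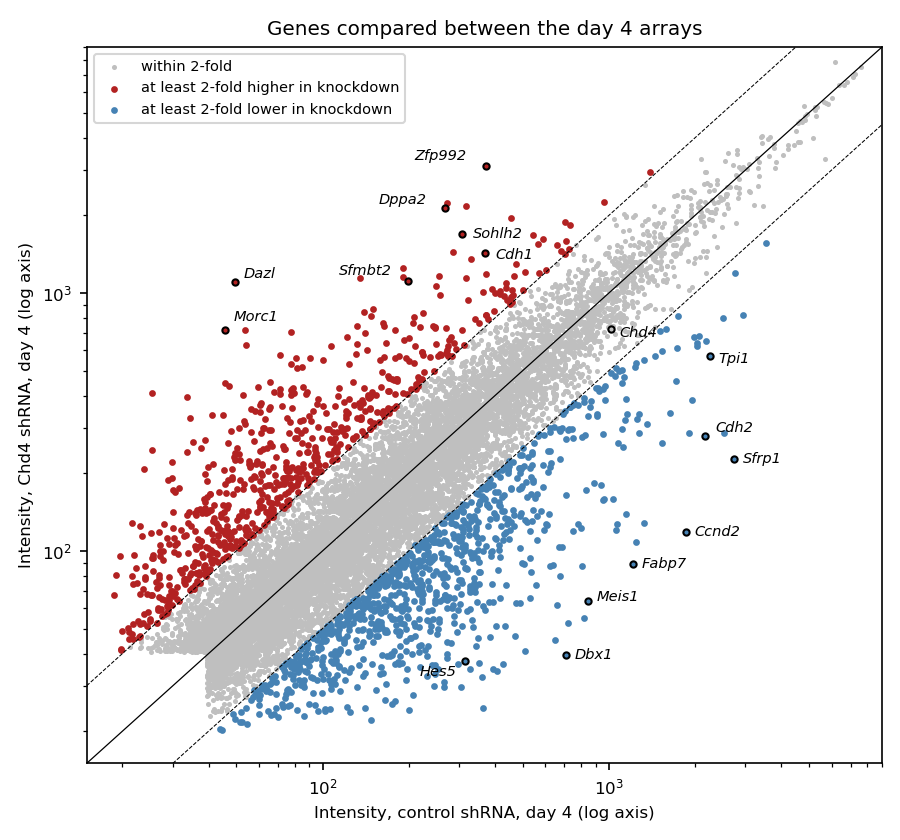
Intensity of each of the 13733 genes compared, in control cells (x axis) and Chd4-knockdown cells (y axis) at day 4, both on log axes; the solid line marks equal values and the dashed lines 2-fold. The 697 genes at least 2-fold higher lie above the upper dashed line and the 912 at least 2-fold lower below the lower one; Chd4 lies between the dashed lines.

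The day 0 arrays show where these genes stood before differentiation. The 912 lower genes had a median intensity of 63.9 in control stem cells and 228 in control cells at day 4. In the Chd4 knockdown their median was 64.2 at day 0 and 71.2 at day 4. The 697 higher genes had a median of 171 in control stem cells and 65.6 in control cells at day 4, and of 183 and 206 in the knockdown. In the knockdown, both sets had day 4 medians close to those of day 0, while the control medians lay far apart. Both sets were chosen by the difference between the control and knockdown arrays of day 4. That choice alone can move the day 4 control medians away from those of day 0. Its part in these medians was not tested. The Mbd3 knockdown, which is set against the same control array, had day 4 medians of 155 for the higher and 87.2 for the lower set, and of 170 and 67.4 at day 0. At day 4, 380 of the 697 and 613 of the 912 genes were past 2-fold the same way in the Mbd3 knockdown. The shared control array can add to this overlap.

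Markers of the tissue were read first. Of 7 measured neural progenitor markers, 6 were lower by 2-fold or more and 0 higher, with a summed intensity of 3877 in control and 560 in the knockdown. Of 7 postmitotic neuron markers, 6 were at least 2-fold lower, and the sums were 2927 and 1538. In the same lines at day 0 these sums were already 2145 and 2148, and the brightest marker alone had 1517 and 1392 there. At day 4 Stmn2 made up much of the neuron marker sums and differed less, at 1156 in control and 904 in Chd4-knockdown cells. Of the 6 stem cell markers compared, all were higher, 2 of them by 2-fold; the sum over all 7 measured was 1412 in control and 3622 in the knockdown, against 6049 and 6313 in the same lines at day 0. The seventh, Dppa5a, was at or under 39.0 in all 6 arrays, stem cells included, so its probe set tells nothing. Most markers of other cells were dim in both arrays. The highest fibroblast marker was 83.7 in control and 76.0 in the knockdown, the highest endoderm marker 116 and 66.3, the highest mesoderm marker 73.6 and 83.2, and the highest neural crest marker 71.0 and 117. The highest blood marker was 36.3 and 44.4. Summed over all measured markers, control and knockdown had 408 and 386 for fibroblasts, 305 and 285 for endoderm, 228 and 246 for mesoderm, 249 and 281 for neural crest, 92.4 and 91.7 for blood, and 218 and 378 for trophectoderm. Among trophectoderm markers Esx1, a placental homeobox gene on the X chromosome, was brighter in the knockdown, at 188, and 4.01-fold higher than in control. Cdx2, which defines that lineage, stood at 39.1 and 36.2. In a longer list of trophectoderm regulators and keratins, 12 of 13 genes compared were higher by any amount and 1 lower. By at least 2-fold 3 (23.1%) were higher, against 5.08% of all genes, and 0 lower (median 0.36). Among endoderm markers Gata6 stood at 29.0 in control and 64.4 in Chd4-knockdown cells.

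Genes of radial glia and neural stem cells were lower by large folds. Of 24 compared, 17 (70.8%) were lower by 2-fold or more and 0 higher, with a median of -2.21. Members were chosen with earlier results of these data known. Fabp7, Ednrb, Lrrn1, Zfhx4, Dach1, Tox3 and Ndnf are also among the 25 lowest genes. The count and the median may thus partly reflect that choice. Fabp7, which carries fatty acids in radial glia, stood at 29.3 and 1219 in control cells at day 0 and day 4, and 28.1 and 89.0 in Chd4-knockdown cells. The Mbd3 knockdown had 30.8 and 139 at the same days. Ednrb, an endothelin receptor, had intensities of 45.0 and 821 in control cells at day 0 and day 4, and 41.7 and 55.0 in Chd4-knockdown cells, and was thus 14.9-fold lower. Lrrn1, a membrane protein of the neural tube, was at 1248 in control and 108 in Chd4-knockdown cells, 11.5-fold lower. In all 3 genes the knockdown value at day 4 was above its own day 0 value and far below the day 4 control. Tox3, a chromatin-associated HMG-box protein, was 8.81-fold lower. The pleiotrophin gene Ptn was 8.46-fold lower, and the secreted factor Ndnf 10.7-fold lower. The nuclear factor genes Zfhx4 and Dach1 were 13.7-fold lower and at least 7.34-fold lower. The intermediate filament nestin, encoded by Nes, stood at 409 in control and 84.7 in Chd4-knockdown cells and the RNA-binding protein gene Msi1 at 890.2 in control and 183 in Chd4-knockdown cells.

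Transcription factors that set neural identity were lower in several families. Of 16 SOX genes compared 7 (43.8%) were lower by 2-fold or more, against 6.64% of all genes, and 0 higher (median -0.65). Sox1, a factor of the neural plate, stood at 46.5 and 1033 in control cells at day 0 and day 4, and 36.4 and 159 in Chd4-knockdown cells. Sox3, of the same subfamily, stood at 392 in control and 99.9 in Chd4-knockdown cells, whereas Sox2, which stem cells and neural progenitors share, stood at 1416 in control and 1131 in Chd4-knockdown cells. Thus 3 close relatives differed by unequal amounts: Sox1 was 6.52-fold lower, Sox3 3.93-fold lower, and Sox2 was within 2-fold. Sox11 and Sox4, factors of newly formed neurons, were 4.01-fold lower and 2.74-fold lower, and Sox9, a factor of glia and progenitors, 3.93-fold lower. Sox21 was 5.95-fold lower on its brighter probe set, and the mean over its 2 probe sets gave a log2 difference of -1.45.

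The class III POU factors, which act with SOX proteins on neural enhancers, split in a like way. Pou3f2, Pou3f3 and Pou3f4 stood at 253, 247 and 298 in control and at 35.0, 36.3 and 36.4 in the knockdown, all under 41.4 there. They were at least 6.11-fold, at least 5.96-fold and at least 7.20-fold lower, respectively. Pou3f1, the member that appears first in the epiblast, was within 2-fold, at 120.1 in control and 97.3 in Chd4-knockdown cells. Of the zinc-finger factors of the neural plate, Zic2 and Zic5 were not lower, with 237 in control and 294 in Chd4-knockdown cells for Zic2 and 152 in control and 259 in Chd4-knockdown cells for Zic5. Otx2, a factor of the epiblast and the anterior neural plate, was at 122 in control and 113 in Chd4-knockdown cells. Of the 12 genes of the ZIC, POU and OTX list, the 3 POU genes were the ones past 2-fold, and the list median was -0.30.

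Patterning factors along the back-to-belly axis of the neural tube were lower on both sides of that axis. Of 29 compared, 14 (48.3%) were lower by 2-fold or more and 0 higher, with a median of -0.94. Dbx1, a homeobox gene of the middle of the spinal cord and hindbrain, stood at 42.2 and 711 in control cells at day 0 and day 4, and 40.4 and 39.5 in Chd4-knockdown cells, and was at least 17.2-fold lower at day 4. Pax6, which patterns the middle and belly side, stood at 382 in control and 63.5 in Chd4-knockdown cells, and Pax3, of the back, at 237 in control and 49.0 in Chd4-knockdown cells. Nkx6-1, Nkx6-2 and Nkx2-2, factors of the belly side, were at least 5.59-fold, 4.52-fold and at least 2.76-fold lower. Irx3 was 8.08-fold lower on its brighter probe set, with a log2 difference of -1.73 as the mean over 2 probe sets. Prdm8, a repressor of neuronal progenitors, was at least 8.52-fold lower. Of the genes named here, Dbx1, Nkx6-1, Nkx2-2 and Prdm8 were under 41.4 in the knockdown, so that their probe sets gave no more signal than a typical dim gene.

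Along the head-to-tail axis, genes of the forebrain and of the hindbrain were both lower. Of 28 measured forebrain and midbrain factors 19 were bright enough to compare. Of these 8 were at least 2-fold lower (median -0.72, or -0.62 with values under 41.4 set to it). Among them were the nuclear receptors Nr2f1 and Nr2f2, at least 6.57-fold and 6.40-fold lower. Lhx5, Fezf2 and Fezf1, factors of the early forebrain, were at least 3.39-fold, at least 3.82-fold and at least 3.87-fold lower. Only 12 of 36 measured Hox genes, which mark positions from the hindbrain backwards, were bright enough to compare, and 5 of them were lower by 2-fold or more and 0 higher. Hoxb2 stood at 31.1 and 509.9 in control cells at day 0 and day 4, and 29.2 and 40.9 in Chd4-knockdown cells. Hoxa2 stood at 394 in control and 34.7 in Chd4-knockdown cells, and Hoxb1 at 530.4 in control and 93.6 in Chd4-knockdown cells. These 3 genes belong to the front end of the clusters, which marks the hindbrain. The Hox list median was -0.50, and -0.15 with values under 41.4 set to it. The cofactors that bind DNA with Hox proteins were lower too: of 10 MEIS, PBX and PREP genes 5 were at least 2-fold lower (median -1.03). Meis1 stood at 848 in control and 63.7 in Chd4-knockdown cells and Meis2 at 1145 in control and 139 in Chd4-knockdown cells, with day 0 control values of 44.4 and 53.9.

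Hindbrain Hox genes respond to retinoic acid, and the carriers of retinoic acid were lower too. Crabp1 and Crabp2, proteins that hold retinoic acid in the cytoplasm, were 10.3-fold and 6.68-fold lower. At day 0 both were higher in the knockdown than in control, Crabp1 at 144 against 75.2 and Crabp2 at 178 against 97.5. Cyp26c1, which degrades retinoic acid, was at least 4.57-fold lower, and the receptor gene Rarg was 2.01-fold higher. Of the 16 genes of this list 3 were lower by 2-fold or more and 1 higher (median -0.09), and that median lies near the one of all genes compared.

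Genes of Notch signaling, by which neighboring progenitors hold each other back from becoming neurons, were lower among ligands, modifiers and targets. Of 23 genes compared 10 (43.5%) were lower by 2-fold or more and 1 higher (median -0.94). The ligand genes Dll1, Dll3 and Jag1 stood at 277, 138 and 405 in control and at 66.2, 38.1 and 111 in the knockdown. The target Hes5, a repressor of neuronal genes, stood at 42.4 and 314 in control cells at day 0 and day 4, and 32.4 and 37.3 in Chd4-knockdown cells, and Nrarp, a target that limits the pathway, at 61.2 and 434 in control cells at day 0 and day 4, and 48.4 and 51.0 in Chd4-knockdown cells. Both targets were close to their day 0 level in the knockdown at day 4. Among the fringe enzymes, which modify the receptors, Lfng was 2.67-fold lower and Mfng 2.27-fold lower, but Rfng was 2.52-fold higher. As means over 2 probe sets, Hes5 and Dll1 had log2 differences of -1.73 and -1.10; on their brighter probe sets they were at least 7.59-fold and 4.18-fold lower.

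Hes5 is shown by sequence because its promoter is a known binding region of RBPJ, the DNA-binding factor of the Notch pathway. The core letters of its motif, TGGGAA, were searched on both strands in windows that run from 250 bases before to 50 bases after a transcription start. They were found in 25.6% of 32851 promoters in RefSeq for build GRCm38.p6. Of the 9 promoters of the Notch genes that were at least 2-fold lower 3 held a match (33.3%), those of Hes5, Hey2 and Lfng, and of 12 promoters of the other measured Notch genes 0 did. A share of 3 in 9 is near that of all promoters. The window of Hes5 at chr4:154960673-154960972, plus strand, is printed with the motif in capitals on either strand.
Hes5: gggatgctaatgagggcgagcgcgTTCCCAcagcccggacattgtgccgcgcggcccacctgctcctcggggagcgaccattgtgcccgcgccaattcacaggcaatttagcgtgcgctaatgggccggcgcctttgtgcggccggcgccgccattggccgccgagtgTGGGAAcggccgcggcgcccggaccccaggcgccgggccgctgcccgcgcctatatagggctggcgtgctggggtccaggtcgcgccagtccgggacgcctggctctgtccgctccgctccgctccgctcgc

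Genes of neurons were lower from the earliest step on. Of 24 proneural and neuronal transcription factors 13 (54.2%) were lower by 2-fold or more and 0 higher, with a median of -1.32. Another 10 measured genes of this list were too dim in both arrays to compare, and with them included the median was -0.52. Neurog1, a bHLH factor that starts the neuronal program, stood at 40.3 and 244 in control cells at day 0 and day 4, and 30.0 and 29.9 in Chd4-knockdown cells. Neurod4 and Nhlh1, which act after it, were at least 4.85-fold and at least 6.41-fold lower. All 3 were under 41.4 in the knockdown at both days. Prox1, St18 and Ebf3, factors of differentiating neurons, were at least 4.31-fold, at least 3.57-fold and at least 5.25-fold lower. Isl1, a factor of motor and sensory neurons, was at least 4.33-fold lower.

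Structural genes of neurons were mostly lower too. Their median is not ranked against that of the factors above, which depends on the filter for dim genes. Of 34 genes of the neuronal cytoskeleton and excitability, 16 (47.1%) were lower by 2-fold or more and 1 higher (median -0.86). The nicotinic receptor gene Chrna3 stood at 427 in control and 36.3 in Chd4-knockdown cells, and Snap25, of synaptic vesicle fusion, at 233 in control and 42.9 in Chd4-knockdown cells. Doublecortin, encoded by Dcx, was at least 2.77-fold lower. Among the neurofilament genes Nefl stood at 533 in control and 83.2 in Chd4-knockdown cells and Nefh at 67.0 in control and 212 in Chd4-knockdown cells, in opposite directions. Nefl was also lower in the knockdown at day 0, at 126 against 253, and Nefh higher, at 326 against 199.

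**Figure D2:**
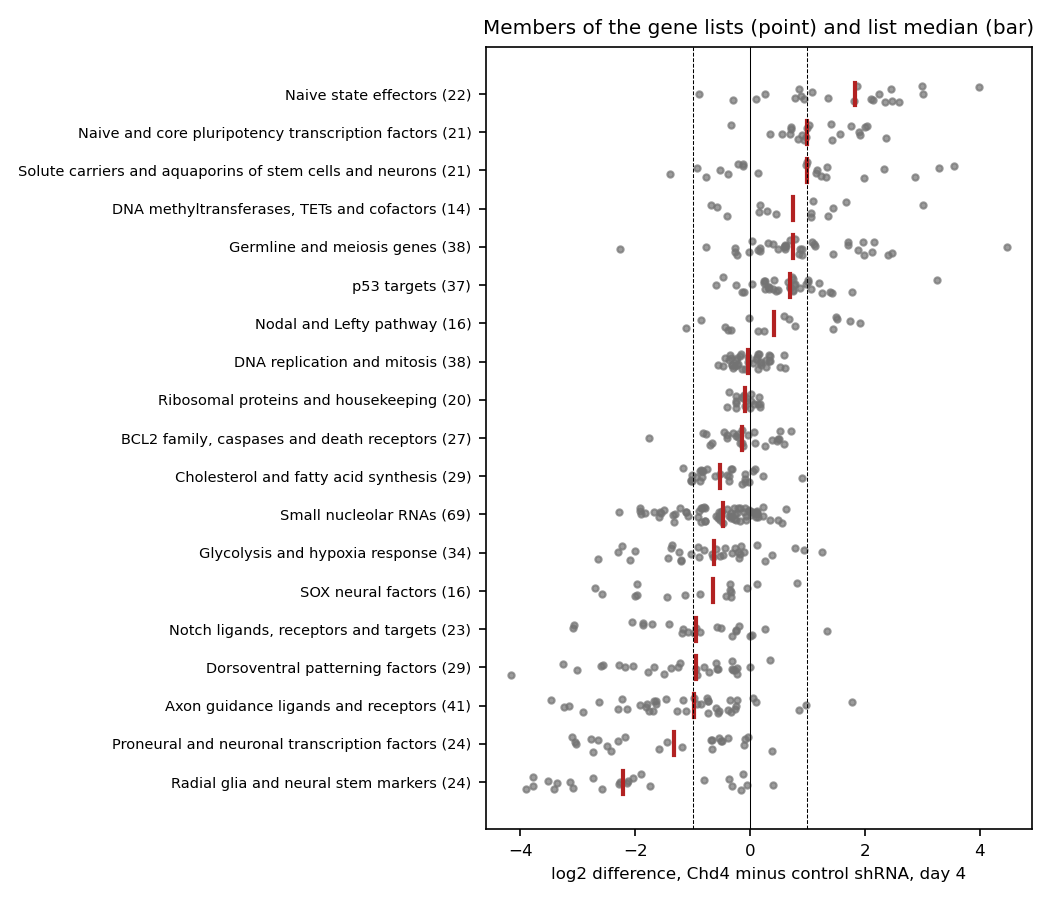
Log2 difference between Chd4-knockdown and control cells at day 4 for the compared members of 19 gene lists (points; number compared in brackets), with the list median as a red bar and 2-fold marked by dashed lines; the vertical spread of points carries no value. The radial glia list has the lowest median, -2.21, and the naive state effectors the highest, 1.83, while replication and housekeeping genes lie around 0. Members of the lists were chosen with earlier results of these data known.

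Axon guidance genes, which steer growing nerve fibers, were lower on both the ligand and the receptor side. Of 41 compared 20 (48.8%) were lower by 2-fold or more and 1 higher (median -0.97). The receptor genes Robo2, Dcc and Epha3 were at least 8.70-fold, at least 6.39-fold and at least 7.91-fold lower. The plexin gene Plxna2 stood at 558 in control and 74.0 in Chd4-knockdown cells, and the ephrin ligand gene Efna5 at 395 in control and 63.5 in Chd4-knockdown cells. The gene that was higher is Epha2, an ephrin receptor of stem cells, at 377 and 83.8 in control cells at day 0 and day 4, and 349 and 286 in Chd4-knockdown cells. Its control value at day 4 was the one that stood apart from the other 3.

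Cadherins, the proteins by which cells hold together, differed in opposite directions. Cdh2, the N-cadherin of neural tissue, stood at 275 and 2159 in control cells at day 0 and day 4, and 202 and 279 in Chd4-knockdown cells, and was 7.73-fold lower at day 4. Cdh1, the E-cadherin of stem cells and epithelia, stood at 1158 and 371 in control cells at day 0 and day 4, and 1812 and 1436 in Chd4-knockdown cells, and was 3.88-fold higher at day 4. In the Mbd3 knockdown at day 4 the values were 440.4 and 1275. The log2 difference of Cdh1 was 1.36 as the mean over its 2 probe sets. Of the 35 genes of the adhesion list 7 were higher by 2-fold or more and 13 lower. Besides Cdh1, the higher genes included Esrp1, an epithelial splicing factor, at 124 in control and 388 in Chd4-knockdown cells, the epithelial factor Grhl2, 2.72-fold higher, the placental cadherin gene Cdh3, 2.28-fold higher, and the tight junction gene Cldn4, 2.45-fold higher. The lower genes included the neural adhesion genes Nrcam, 6.12-fold lower, and Ncam1, 3.01-fold lower, and Zeb1, a repressor of Cdh1, 2.05-fold lower.

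Signals between cells differed pathway by pathway. The WNT antagonist genes Sfrp1 and Frzb were 12.1-fold and at least 9.83-fold lower, with Sfrp1 at 383 and 2744 in control cells at day 0 and day 4, and 434 and 227 in Chd4-knockdown cells. Sfrp2 was 5.06-fold lower on 1 probe set but its other probe set differed by 0.02 on the log2 scale, so no direction is given for it. Notum, an enzyme that inactivates WNT proteins, stood at 45.2 in control and 141 in Chd4-knockdown cells, with a log2 difference of 0.99 over its 2 probe sets. Among 31 other WNT ligands, receptors and targets 6 were lower by 2-fold or more and 0 higher (median -0.33), of which the receptor genes Fzd3 and Fzd7 were 6.62-fold and 2.96-fold lower.

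For FGF signaling, which drives exit from the naive state, 3 of 27 genes were higher and 3 lower by 2-fold (median 0.01). Fgf4, the ligand of stem cells, stood at 119 in control and 377 in Chd4-knockdown cells, and Etv5, a target of the pathway, at 278 in control and 657 in Chd4-knockdown cells. Fgf15, a ligand of the early neural tube, stood at 938 in control and 179 in Chd4-knockdown cells, with a log2 difference of -1.42 over its 2 probe sets, and the receptor gene Fgfr3 was at least 5.80-fold lower.

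For BMP signaling, which opposes neural fate, most genes were lower. By any amount 18 of 20 genes compared were lower and 2 higher, with the ligand gene Bmp4 among the higher. Bmp4 stood at 1072 and 95.7 in control cells at day 0 and day 4, and 770.1 and 372 in Chd4-knockdown cells, 3.88-fold higher at day 4. The BMP target genes Id2 and Id4 were 4.27-fold and 3.69-fold lower, and the antagonist gene Fst, which binds activin, was 9.27-fold lower. Of the 20 genes of this list 1 was at least 2-fold higher and 5 lower (median -0.67). In the Nodal pathway 5 of 16 genes were higher by 2-fold or more and 1 lower (median 0.42). They were the ligand gene Nodal, the co-ligand gene Gdf3, the nuclear partner gene Foxh1 and the antagonist genes Lefty1 and Lefty2, 2.74-fold, 2.85-fold, 2.81-fold, 3.75-fold and 3.35-fold higher. The lower gene was the receptor gene Acvr2a, 2.16-fold lower.

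Genes of the naive stem cell state had the highest median among the lists on the deposited scale. With 16 subtracted from each intensity, that of the Sfmbt2 microRNA families was higher. Of 22 naive state effectors 14 (63.6%) were higher by 2-fold or more and 0 lower (median 1.83). Members were chosen with earlier results of these data known, and Morc1, Dppa2 and Dnmt3l are among the 25 highest genes. The count and the median may thus partly reflect that choice. Morc1, which silences transposons in germ cells, stood at 397 and 45.7 in control cells at day 0 and day 4, and 387 and 722 in Chd4-knockdown cells, so that its day 4 level in the knockdown was also above that of both stem cell arrays. Dppa2 stood at 2214 and 268 in control cells at day 0 and day 4, and 1899 and 2143 in Chd4-knockdown cells, and Dnmt3l, a cofactor of DNA methyltransferases, at 559 and 70.9 in control cells at day 0 and day 4, and 572 and 573 in Chd4-knockdown cells. Both were at their stem cell level in the knockdown at day 4. Fbxo15, Tcl1, Dppa4, Pecam1 and L1td1 were 6.05-fold, 5.52-fold, 5.49-fold, 4.43-fold and 4.31-fold higher. Side by side at day 4, the Chd4 and Mbd3 knockdowns had 362 and 117 for Tcl1, and 847 and 449.7 for Fbxo15. They lay closer for Dppa2, with 2143 and 1576, and for Dnmt3l, with 573 and 514.

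Pluripotency transcription factors differed by degree. Of 21 compared 10 (47.6%) were higher by 2-fold or more and 0 lower (median 1.00). Tbx3 stood at 637 and 79.7 in control cells at day 0 and day 4, and 916 and 409 in Chd4-knockdown cells, and Tfcp2l1 at 904 and 85.7 in control cells at day 0 and day 4, and 1312 and 323 in Chd4-knockdown cells. Their day 4 levels in the knockdown lay between those of control at day 4 and of the knockdown at day 0. Nr5a2, Nr0b1, Klf2 and Klf5 were 3.71-fold, 3.36-fold, 2.96-fold and 2.66-fold higher. Klf4, a target of LIF signaling, stayed below 2-fold, at 405 and 67.5 in control cells at day 0 and day 4, and 425 and 126 in Chd4-knockdown cells. In the list of LIF and STAT3 response genes 10 of 13 were higher by any amount, 0 of them by 2-fold, and 1 was lower by 2-fold or more (median 0.37); the targets Socs3 and Bcl3 stood at 79.2 and 67.8 in control and at 70.1 and 70.4 in the knockdown at day 4. The kinase gene Jak2 was 4.04-fold lower.

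**Figure D3:**
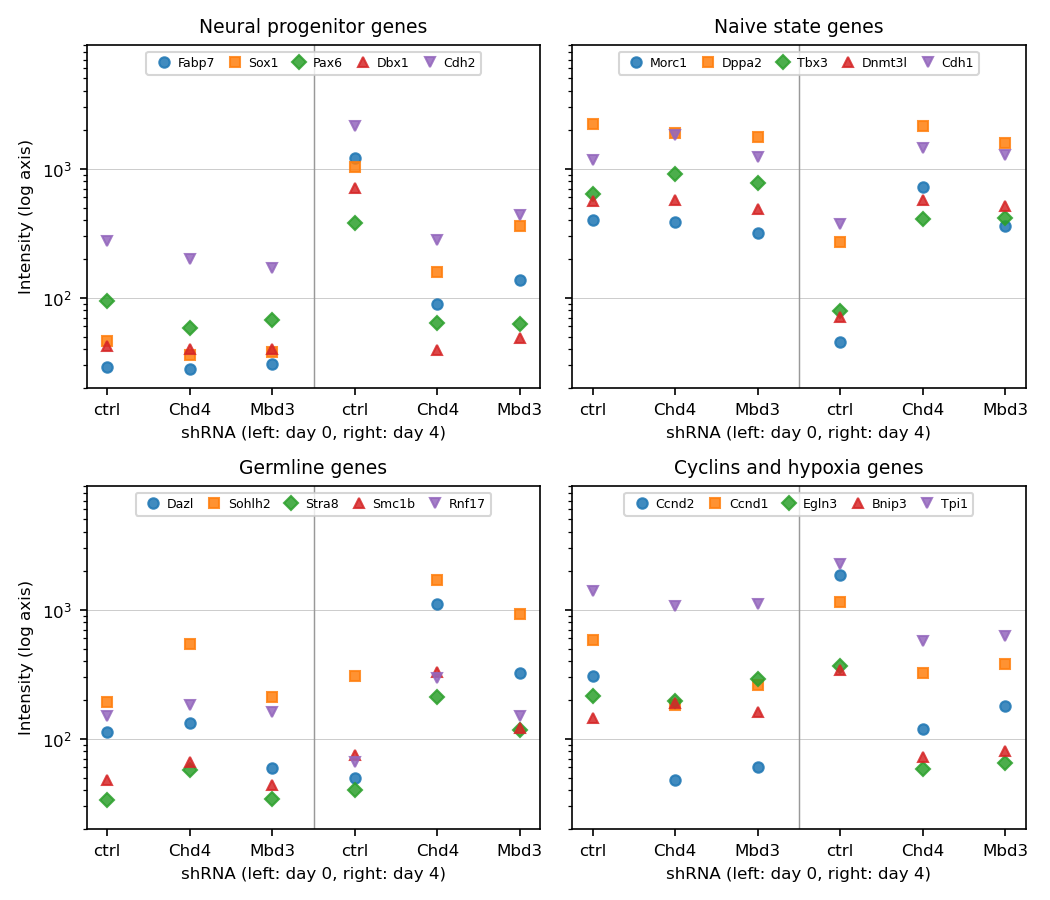
Intensity (log axis) of 20 genes in each of the 6 arrays, in the order control, Chd4 and Mbd3 shRNA at day 0 (left of the line) and at day 4 (right); 1 point is 1 array. Fabp7 and Sox1 are high in the control array at day 4, Dppa2 and Dnmt3l are low there, Dazl and Sohlh2 are highest in the Chd4 array at day 4, and Ccnd2 is below the control of its day in both knockdowns.

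Enzymes and regulators of DNA methylation were higher. Of 14 genes 7 (50.0%) were higher by 2-fold or more and 0 lower (median 0.75). Tet1, which oxidizes methylcytosine, stood at 1923 and 373 in control cells at day 0 and day 4, and 1822 and 1190.3 in Chd4-knockdown cells. Dnmt3b, a de novo methyltransferase that is a mark of the primed state, stood at 827 and 591 in control cells at day 0 and day 4, and 650.3 and 1618 in Chd4-knockdown cells, higher at day 4 than in any stem cell array. Dnmt3a stood at 161 in control and 342 in Chd4-knockdown cells, and Zfp57, which protects methylation at imprinted regions, at 209 in control and 537 in Chd4-knockdown cells. In the list of primed epiblast genes 3 of 19 were higher by 2-fold or more and 5 lower (median -0.28).

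Germline genes are silenced in somatic cells, many of them by DNA methylation and by repressors that bind E-box motifs in their promoters. Of 38 germline and meiosis genes compared 14 (36.8%) were higher by 2-fold or more and 1 lower, with a median of 0.74, or 0.61 with values under 41.4 set to it. The count takes intensities as deposited. It includes genes that are under 2-fold when set against 41.4, such as Hormad2 and Asz1, the latter at least 1.10-fold higher. Dazl, which binds messenger RNA in germ cells, stood at 113 and 49.5 in control cells at day 0 and day 4, and 132 and 1104 in Chd4-knockdown cells, which is 22.3-fold higher than control at day 4 and 9.76-fold above control stem cells. Sohlh2, a bHLH factor of germ cells, stood at 192 and 307 in control cells at day 0 and day 4, and 543 and 1696 in Chd4-knockdown cells. Stra8, which opens meiosis, stood at 33.6 and 39.9 in control cells at day 0 and day 4, and 57.8 and 211 in Chd4-knockdown cells. These 3 genes were thus higher than in any stem cell array. In the Mbd3 knockdown at day 4 Dazl, Sohlh2 and Stra8 were also above control, at 324, 934 and 117. Smc1b, a meiotic cohesin, and Rnf17, a tudor protein of germ granules, were 4.35-fold and 4.44-fold higher, with 327 and 293 in the Chd4 knockdown at day 4 against 122 and 149 in the Mbd3 knockdown. The meiotic axis genes Hormad1 and Hormad2 were at least 2.55-fold and at least 1.88-fold higher, and the piRNA pathway gene Piwil2 at least 3.38-fold higher. The lower gene, Tdrkh, also of the piRNA pathway, stood at 30.2 and 162 in control cells at day 0 and day 4, and 31.6 and 33.7 in Chd4-knockdown cells. Ddx4, a marker of later germ cells, was not higher, at 113 in control and 66.1 in Chd4-knockdown cells.

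Hormad1 is shown because its window holds the full E-box, CACGTG, a palindrome that reads the same on both strands. The motif was in 7.15% of the 32851 promoters of 300 bases. It was in 3 of 14 promoters (21.4%) of the higher germline genes, those of Hormad1, with 2 annotated starts, and of Taf7l, and in 13 of 35 (37.1%) of the other measured germline genes. The motif was thus not more frequent in promoters of the higher genes than in those of the others on the list. The windows of Dazl, Stra8 and Sohlh2 had 0 matches. The window of Hormad1 lies at chr3:95559427-95559726, plus strand (RefSeq, GRCm38.p6), and the motif is in capitals.
Hormad1: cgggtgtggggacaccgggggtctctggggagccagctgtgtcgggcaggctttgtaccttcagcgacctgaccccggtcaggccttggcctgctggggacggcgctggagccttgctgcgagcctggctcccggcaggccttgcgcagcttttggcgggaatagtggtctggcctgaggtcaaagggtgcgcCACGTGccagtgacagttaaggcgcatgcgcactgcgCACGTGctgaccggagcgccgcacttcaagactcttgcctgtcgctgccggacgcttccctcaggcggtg

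Several of the 25 highest genes encode zinc-finger proteins. Zfp992 stood at 1457 and 371 in control cells at day 0 and day 4, and 1793 and 3102 in Chd4-knockdown cells, Zfp981 at 929 and 272 in control cells at day 0 and day 4, and 1195 and 2228 in Chd4-knockdown cells, and Zfp936 at 575 and 77.6 in control cells at day 0 and day 4, and 571 and 706 in Chd4-knockdown cells. Zfp640, Zfp985, Zfp982 and Zfp980 were 6.90-fold, at least 4.55-fold, 5.03-fold and 4.30-fold higher. Of 144 genes compared with names from Zfp600 to Zfp999, 14 (9.72%) were higher by 2-fold or more and 11 (7.64%) lower, with a median of -0.28. The shares of all genes compared were 5.08% higher and 6.64% lower, so the lower share was near that of all genes. The lower ones included Zfp608, 4.28-fold lower, and Zfp703, at least 3.59-fold lower, so the name series as a whole did not go one way. Many of these genes are near-identical copies, and signal may be shared between their probe sets.

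Imprinted genes, expressed from 1 parental copy, were divided. Of 42 compared 5 (11.9%) were higher by 2-fold or more and 9 (21.4%) lower, against 5.08% and 6.64% of all genes (median -0.34). Sfmbt2, a Polycomb-related gene that acts in the placenta, stood at 570.0 and 199 in control cells at day 0 and day 4, and 521 and 1116 in Chd4-knockdown cells. Gab1 and Jade1, with the transporter gene Slc38a4, were also higher, by 2.76-fold, 2.67-fold and 2.51-fold. These 4 are known for imprinting through histone methylation rather than through DNA methylation of the egg. Grb10, a growth inhibitor, stood at 1642 in control and 344 in Chd4-knockdown cells, Dlk1, a ligand related to Notch ligands, at 201 in control and 45.8 in Chd4-knockdown cells, and Ndn, expressed in neurons, at 315 in control and 86.0 in Chd4-knockdown cells.

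An intron of Sfmbt2 carries a large cluster of microRNA genes. Those compared were, like their host, higher in the Chd4 knockdown than in control at day 4. In control cells not all of them fell from day 0 to day 4 as Sfmbt2 did, and Mir467c stood at 171 and 170 there. Of 24 measured members of the Mir297, Mir466, Mir467 and Mir669 families, 17 were bright enough to compare and 12 of them were at least 2-fold higher, with a median of 1.48, or 2.54 with 16 subtracted from each intensity. Mir669j stood at 454 and 191 in control cells at day 0 and day 4, and 486 and 1248 in Chd4-knockdown cells, and Mir669k at 413 and 191 in control cells at day 0 and day 4, and 497 and 1156 in Chd4-knockdown cells. In the Mbd3 knockdown these genes were also high, with 914 and 1523 for Mir669j at day 0 and day 4. This list was chosen after its values had been seen, the copies are near-identical, and a probe set cannot tell a microRNA hairpin from the longer transcript around it. Over all 165 compared genes named as microRNAs, a set that holds these families, 16 (9.70%) were higher by 2-fold or more and 4 (2.42%) lower (median 0.15).

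Another microRNA gene, Mir290a, belongs to the cluster that is abundant in mouse stem cells and stood at 445 and 87.8 in control cells at day 0 and day 4, and 499.9 and 405 in Chd4-knockdown cells. Its mature 3p arm is shown with its seed, bases 2 to 8, in capitals, beside the 3p arms of 2 other members of that cluster and of Mir302b, of another stem cell cluster. The seeds show what these microRNAs share: 3 of the 4 printed seeds are the same, and the other is that of miR-290a-3p. Sequences are from RefSeq, build GRCm38.p6, and miR-290a-3p lies at chr7:3218674-3218697, plus strand.
miR-290a-3p: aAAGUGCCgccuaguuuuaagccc
miR-291a-3p: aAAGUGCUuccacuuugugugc
miR-294-3p: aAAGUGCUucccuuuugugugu
miR-302b-3p: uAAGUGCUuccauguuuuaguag

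Mir302b was dim in all 6 arrays, at most 21.5. Of the neural microRNA genes, Mir219a-2 stood at 167 in control and 49.6 in Chd4-knockdown cells, while Mir9-3 and Mir124a-2 were within 2-fold, at 54.4 in control and 42.9 in Chd4-knockdown cells for Mir9-3 and 42.8 in control and 32.6 in Chd4-knockdown cells for Mir124a-2.

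Cell cycle genes were read in separate lists for entry into the cycle and for DNA replication and mitosis. Cyclin D2, encoded by Ccnd2, stood at 306 and 1858 in control cells at day 0 and day 4, and 48.4 and 119 in Chd4-knockdown cells, 15.7-fold lower at day 4. Cyclin D1, encoded by Ccnd1, stood at 581 and 1139 in control cells at day 0 and day 4, and 184 and 322 in Chd4-knockdown cells, and their partner kinase gene Cdk6 at 342 and 348 in control cells at day 0 and day 4, and 123 and 166 in Chd4-knockdown cells. All 3 were at least 2-fold lower at both days. The inhibitor genes Cdkn1b and Cdkn1c were 2.78-fold and 2.19-fold lower at day 4. Of 28 genes of the cyclin D, CDK and RB list 8 (28.6%) were lower by 2-fold or more and 0 higher (median -0.17). Of 38 genes of DNA replication and mitosis 0 were past 2-fold in either direction (median -0.04), and likewise 0 of 20 ribosomal protein and housekeeping genes (median -0.09). Among 37 targets of p53, 9 (24.3%) were higher by 2-fold or more and 0 lower (median 0.69), and of 27 genes of the BCL2 family, caspases and death receptors 1, Bcl2, was past 2-fold, 3.40-fold lower on its brighter probe set. As the mean over its 2 probe sets Bcl2 had a log2 difference of -0.87, which is within 2-fold.

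Other chromatin regulators were read in a Polycomb list and a remodeler list. Of 28 PRC1 and PRC2 subunit genes 4 (14.3%) were higher by 2-fold or more and 2 (7.14%) lower (median 0.31). The shares of all genes compared were 5.08% and 6.64%. Phf19, which guides PRC2, stood at 107 and 73.4 in control cells at day 0 and day 4, and 242 and 191 in Chd4-knockdown cells, and Jarid2, also of PRC2, was 2.09-fold higher. The PRC1 gene Phc1 was 2.27-fold higher, and Yaf2 2.81-fold lower. Of 24 BAF and CHD remodeler genes Arid1b and Smarce1 were past 2-fold, 2.53-fold and 2.01-fold lower (median -0.05). That is 8.33% lower, near the 6.64% of all genes compared.

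Metabolic genes differed by pathway. Of 34 genes of glycolysis and the hypoxia response 12 (35.3%) were lower by 2-fold or more and 1 higher (median -0.62). The oxygen sensor genes Egln3 and Egln1 stood at 368 and 594 in control and at 58.9 and 121 in the knockdown. Tpi1, a glycolytic enzyme, stood at 1393 and 2264 in control cells at day 0 and day 4, and 1071 and 568 in Chd4-knockdown cells, and Pgk1, another, at 1892 and 2759 in control cells at day 0 and day 4, and 2162 and 1199 in Chd4-knockdown cells. The hypoxia-inducible gene Vegfa was 4.27-fold lower. For these 5 genes the control array at day 4 was the highest of the 4 control and Chd4 arrays.

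In a list of solute carriers and water channels picked for stem cells and neurons, 10 of 21 genes compared (47.6%) were higher by at least 2-fold and 1 lower (median 0.99). The list was drawn up with earlier results of these data known, and Aqp3, Slc4a11 and Slc5a4b are among the 25 highest genes. Its share and median may thus partly reflect that choice. Aqp3, a channel for water and glycerol, stood at 290.0 and 45.8 in control cells at day 0 and day 4, and 599 and 449.7 in Chd4-knockdown cells, and the membrane transporter gene Slc4a11 at 323 and 59.3 in control cells at day 0 and day 4, and 453 and 434 in Chd4-knockdown cells. The amino acid transporter subunit gene Slc7a7 stood at 1576 and 287 in control cells at day 0 and day 4, and 1054 and 1446 in Chd4-knockdown cells. Cpt1a, which admits fatty acids to mitochondria, stood at 229 and 60.5 in control cells at day 0 and day 4, and 584 and 344 in Chd4-knockdown cells, and was higher in the knockdown at both days. Of 29 genes of cholesterol and fatty acid synthesis 5 (17.2%) were lower by 2-fold or more and 0 higher (median -0.52), each by little more than 2-fold. Fads1, a fatty acid desaturase, had the largest of these differences, 2.25-fold lower.

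Genes of the extracellular matrix lay on both sides. Of 35 compared 6 (17.1%) were higher by 2-fold or more, against 5.08% of all genes (median -0.19). The 3 lower genes (8.57%) were near the share of all genes, 6.64%. The proteoglycan gene Bgn stood at 77.0 and 78.1 in control cells at day 0 and day 4, and 244 and 357 in Chd4-knockdown cells, with a log2 difference of 1.21 at day 4 as the mean over 2 probe sets. Nidogen 2, encoded by Nid2, stood at 323 in control and 941 in Chd4-knockdown cells, and fibronectin, encoded by Fn1, at 1393 in control and 2961 in Chd4-knockdown cells. Spon1, a protein of the neural floor plate, was at least 3.18-fold lower, and Lama1 3.20-fold lower.

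Small nucleolar RNAs, which guide the modification of ribosomal RNA and are cut from introns of other genes, were lower as a class. Of 69 compared 17 (24.6%) were at least 2-fold lower, against 6.64% of all genes, and 0 higher; 54 were lower by any amount and the median was -0.46. Snora15 stood at 229 and 303 in control cells at day 0 and day 4, and 325 and 62.3 in Chd4-knockdown cells, Snord22 at 855 and 1277 in control cells at day 0 and day 4, and 1222 and 338 in Chd4-knockdown cells, and Snord47 at 1401 and 1979.7 in control cells at day 0 and day 4, and 1699 and 675 in Chd4-knockdown cells. In these 3 the knockdown at day 4 was the lowest of the 4 arrays. The list median was 0.14 between the day 0 arrays, and -0.15 for the Mbd3 knockdown against the same control at day 4. Among 12 other small noncoding RNAs, a list chosen after its values had been seen, 3 (25%) were at least 2-fold lower, namely Scarna10, Rny1 and Rny3, 4.43-fold, 4.36-fold and at least 4.05-fold lower; the others were within 2-fold, among them Rn7sk at 7134 in control and 6909.9 in Chd4-knockdown cells and Rpph1 at 2595 in control and 2579 in Chd4-knockdown cells. A column-based kit was used for extraction, per the labels' protocols, and the part of RNA recovery or quality in this difference was not tested.

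**Figure D4:**
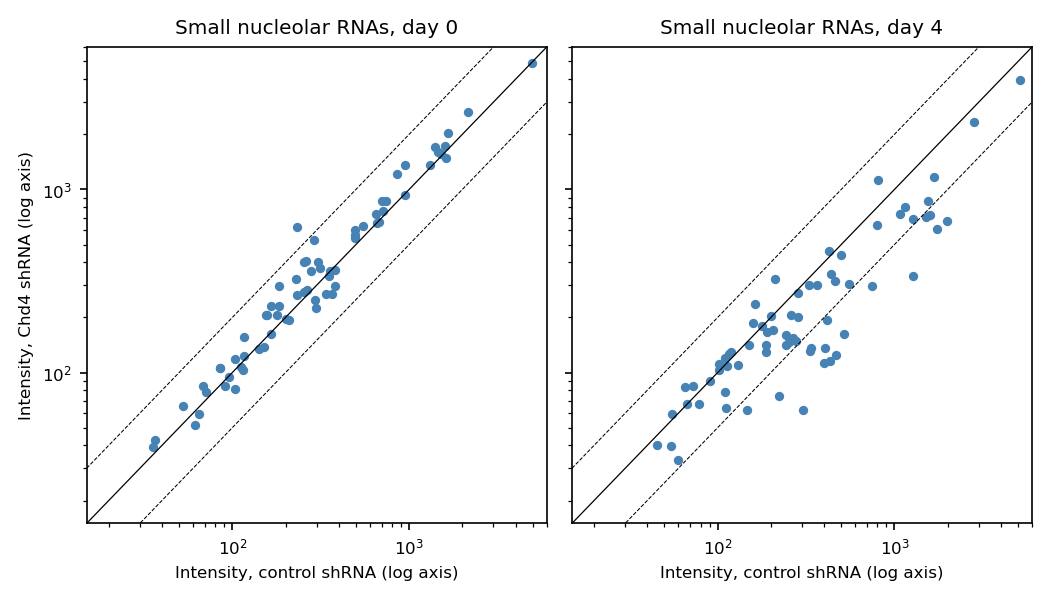
Intensity of the 69 small nucleolar RNAs compared at day 4, in control (x axis) and Chd4-knockdown cells (y axis), at day 0 (left) and day 4 (right), all on log axes; the solid line marks equal values and the dashed lines 2-fold. At day 4 most points lie below the solid line and 17 at or beyond the lower dashed line, while at day 0 the points lie around or above it.

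The day 0 pair shares no array with the day 4 pair, so the same shRNA could be followed in other arrays. Between those arrays 0.692% of 13446 genes were 2-fold or more higher and 0.565% lower, 1.26% in all. Of the 697 genes higher at day 4, 420 (60.3%) were also higher at day 0, against 48.8% of all genes compared, and their median log2 difference at day 0 was 0.10. By at least 2-fold 35 were higher on both days, which is 5.02% of the 697 and 37.6% of the 93 genes higher at day 0. Of the 912 lower genes 445 (48.8%) were also lower at day 0, against 51.2% of all, with a median of 0.01. By at least 2-fold 12 were lower on both days, 1.32% of the 912 and 15.8% of the 76 genes lower at day 0. The lower genes at day 4 therefore had no common direction at day 0.

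Among genes higher on both days, some had their highest values in the Chd4 arrays. Ptprtos, a noncoding transcript opposite to a phosphatase gene, stood at 74.1 and 53.6 in control cells at day 0 and day 4, and 417 and 718 in Chd4-knockdown cells, with 67.1 and 85.2 in the Mbd3 knockdown. Cpn1, a carboxypeptidase subunit, stood at 99.5 and 54.1 in control cells at day 0 and day 4, and 208 and 629 in Chd4-knockdown cells, with 134 and 113 in the Mbd3 knockdown. Usp26 and Nxf3, X-linked genes known from the testis, stood at 510.4 and 450.2 in the Chd4 knockdown at day 4, at 81.5 and 65.3 in control and at 144 and 138 in the Mbd3 knockdown. In each of these 4 genes the Chd4 arrays were the highest of their day. By contrast Cd80, an immune ligand and p53 target, was at 329 and 299 in the Chd4 and Mbd3 knockdowns at day 4, against 34.5 in control.

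The 25 highest held further genes of varied function. Cyp2b23, a cytochrome P450 gene, was at least 9.92-fold higher, and Efhc2, of cilia, was 9.21-fold higher. Slc5a4b, a sugar transporter gene of the solute carrier list, was at least 9.51-fold higher, and the membrane peptidase gene Dpp4 7.49-fold higher. Uba1y, a Y-linked ubiquitin-activating enzyme known from spermatogonia, and Rpl10l, a ribosomal protein copy of the testis, were 7.64-fold and at least 6.52-fold higher. Plet1, a surface marker of trophoblast progenitors, was at least 8.10-fold higher, Fthl17b, an X-linked ferritin copy, at least 6.41-fold higher, and Platr7, a noncoding RNA tied to pluripotency, at least 5.82-fold higher. Among the 25 lowest, the membrane protein gene Ildr2 was 14.5-fold lower, with a log2 difference of -2.08 over 2 probe sets, Itgb8, an integrin of neural progenitors, was 10.1-fold lower, and Dpysl2, of growth cones, was 8.84-fold lower. Of the 25 highest 4, and of the 25 lowest 1, carry clone or predicted-gene names and are not named.

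In the other direction, 13 of the 697 higher and 15 of the 912 lower genes were past 2-fold the opposite way at day 0. The hypoxia factor gene Epas1 stood at 346 and 58.0 in control cells at day 0 and day 4, and 151 and 349.7 in Chd4-knockdown cells. The brain tubulin gene Tubb4a stood at 61.3 and 747 in control cells at day 0 and day 4, and 123 and 119 in Chd4-knockdown cells, and Chd3 at 94.3 and 418 in control cells at day 0 and day 4, and 236 and 149 in Chd4-knockdown cells. In Tubb4a and Chd3 the control arrays differed more between the days than the knockdown arrays. The FGF feedback gene Spry4 stood at 538 and 77.5 in control cells at day 0 and day 4, and 219 and 192 in Chd4-knockdown cells, and Tcf15, a factor of primed cells, at 598 and 100.4 in control cells at day 0 and day 4, and 241 and 364 in Chd4-knockdown cells.

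**Figure D5:**
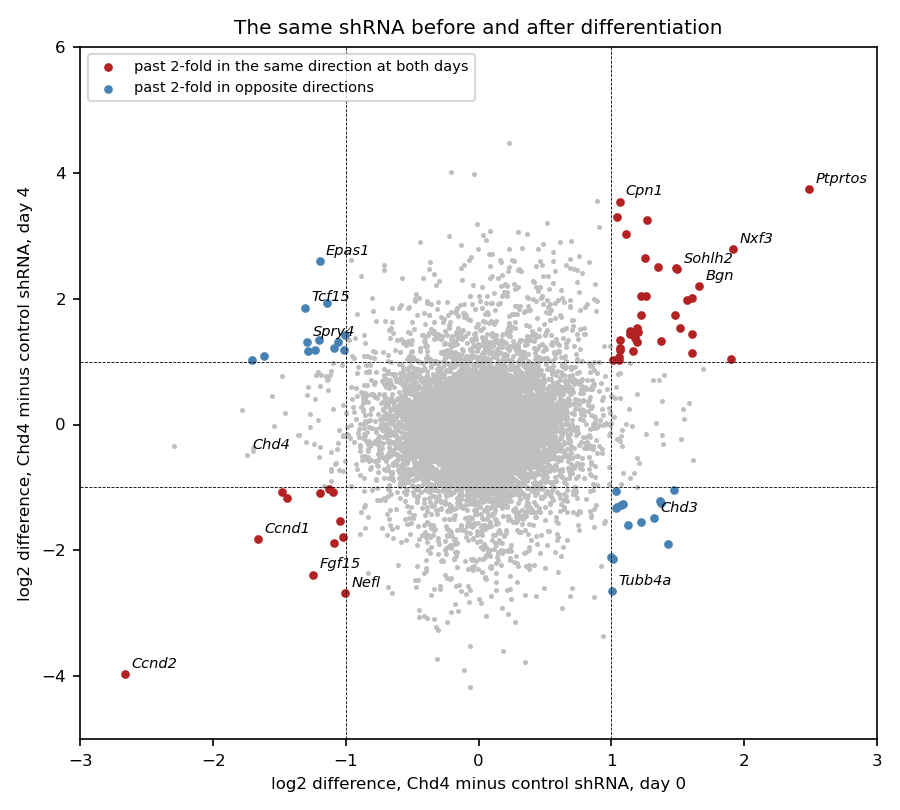
Log2 difference between Chd4-knockdown and control cells at day 0 (x axis) and at day 4 (y axis), for genes compared at both days, with 2-fold marked by dashed lines. The 47 genes past 2-fold in the same direction are red and the 28 past 2-fold in opposite directions are blue; Ccnd2 is the lowest at day 0 and near the lowest at day 4, and Ptprtos is the highest at day 0 and among the highest at day 4.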

How the data were processed

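Total RNA of 6 groups of mouse embryonic stem cells, 1 sample each, was hybridized to Mouse Gene 2.0 ST arrays. The authors used GeneSpring GX 12.6.1, per the series' design text, and RMA, per the submitters' processing notes. What they deposited are linear intensities, from 17.4 to 7980; an added constant near 16 is possible and is stated in no source used here. Neither source names a genome build. The number of arrays limits the precision.

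Log2 of the deposited intensities was used with no further scaling. Of the probe sets, 23521 carried 1 gene symbol, 1814 several and 9016 none, and symbols were updated through RefSeq, which held 23328 of them. Of 1082 genes with several probe sets the brightest over the 6 arrays was used. Of the symbols in 58 lists, 1090 matched exactly, 2 by synonym and 92 not. With 1 array a side there is no test: genes past 2-fold were counted and set beside all genes compared. The members and lists were chosen with earlier results of these data known, as was the floor of 41.4. The genes named are NuRD genes, the 25 highest and 25 lowest, up to 8 per list with the largest differences, with members named as a contrast, and genes opposite between days. Counting was checked on simulated data. Python 3.11.15, numpy 2.4.6 and pandas 2.3.3 were used.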

Additional observations from a re-analysis of the deposited data

Results flagged for a closer look

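For 28 genes the Chd4 knockdown and control arrays differed by at least 2-fold in 1 direction at day 4 and by at least 2-fold in the other at day 0. The difference between the days was not tested, since each value rests on 1 array a side. Lower at day 4 and higher at day 0, with the log2 difference at day 4, were Tubb4a at -2.65, Ndufa4l2 at -2.13, Rny3 at -2.10, Snord13 at -1.89 and Cd24a at -1.59. Tubb4a and Kif1a are genes of neurons, and Cd24a a surface marker of progenitors. Snord13 and Rny3 are small RNAs, and stand beside the lower small nucleolar RNAs of day 4. Also in this direction were Kif1a at -1.56, Chd3 at -1.49, Cnksr2 at -1.33, Lipg at -1.31 and Adgrg1 at -1.28. Of smaller size were E2f6 at -1.26, Kctd12 at -1.24, Copz2 at -1.22, Klhdc2 at -1.06 and Dap at -1.03. The probe sets of Kctd12 disagreed in sign, so that its direction is uncertain.

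Higher at day 4 and lower at day 0 were Epas1 at 2.59, Arl14epl at 1.94, Tcf15 at 1.86, Nexmif at 1.43, Slc27a2 at 1.34 and Mc5r at 1.31. As the mean over its 2 probe sets Slc27a2 was at 0.72, within 2-fold. Epas1 is a hypoxia factor and Tcf15 a factor of primed cells. In both, the control value was lower at day 4 than at day 0, with 346 and 58.0 for Epas1 and 598 and 100.4 for Tcf15. Also in this direction were Spry4 at 1.31, Zp3 at 1.22, Castor1 at 1.19, Phc1 at 1.18, Enpp3 at 1.17, Cbr3 at 1.09 and Pramel19 at 1.03. For Cbr3, Mc5r and Zp3, and for Rny3 and Kctd12 above, the dimmer intensity at day 4 was under 41.4.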

How the results depend on the processing

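The counts of genes at least 2-fold higher and lower stayed within 1.5 times of 697 and 912 under each of the 7 alternatives tried: no filter on dim genes, both arrays at or above their median, 16 subtracted from each intensity, intensities under 41.4 set to it, arrays centred on their medians, quantile normalization, and the mean over probe sets. Of 294 list medians recomputed under the settings that apply, 292 stayed within 1.5-fold. Of medians at least 0.1 in size 0 changed sign, and 4 times a median smaller than that did. The exceptions were the proneural and neuronal factors with no filter on dim genes, at -0.52, and the Sfmbt2 microRNA families with 16 subtracted, at 2.54. Of 440 named genes, 100 moved by over 1.5-fold with 16 subtracted, 0 with quantile normalization and 19 with the mean over probe sets, and 0 of those at least 0.1 in size changed sign. Centring moved the share of higher genes among those past 2-fold from 43.3% to 39.3%. No paired analysis was possible because each group holds 1 array and the labels give no replicate numbers; for the same reason no array could be left out. Dim probe sets limit the folds of genes near the floor, and 24 of 36 measured Hox genes and 315 of 480 genes named as microRNAs were too dim to compare.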
